A study of Mus musculus with 56 samples.

Results

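Histone modifying enzymes are the 75 genes of the expression table whose symbol begins with Kdm, Kmt, Setd, Hdac, Sirt, Kat or Prmt followed by a digit, together with Ezh1, Ezh2, Eed, Suz12, Ehmt1, Ehmt2, Dot1l, Nsd1, Crebbp and Ep300, while 3 sex-linked demethylase genes were left out. They were 75 of 24424 genes in the table, and 73 of them were among the 12133 genes that reached a mean log2 value of 4 over the 15 libraries and were tested. Kdm4d, a histone H3K9 demethylase, and Prmt8, an arginine methyltransferase, fell short of that mean. The members were chosen by their names, and this rule and the classes were set with earlier results of these data known. The members were divided into 13 enzyme classes, mostly by the residue or the chemistry they act on. The H3K4 class held only the catalytic subunits of COMPASS-type complexes, and 6 other SET domain proteins, whatever their residue, formed a class of their own.

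RNA was sequenced from T2F3 and WT mice of strain C57BL/6, in 3 T2F3 MPP, 4 WT MPP, 3 T2F3 GMP and 5 WT GMP libraries. T2F3 stands for the genotype Tet2-/-Flt3ITD, in which Tet2, an enzyme that oxidizes 5-methylcytosine, is deleted and Flt3, a receptor tyrosine kinase of early progenitors, carries an internal tandem duplication. No label names an inducible or tissue-specific driver or the age or sex of the mice. None ties a library to its own animal, and p-values therefore reflect only how much these libraries vary. Multipotent progenitors (MPP) were bone marrow cells sorted as lin- Sca+ cKit+ CD48+ CD150-, and granulocyte-macrophage progenitors (GMP) as lin- Sca- cKit+ CD34+ CD16/32+. Values are regularized log2 values deposited by the authors, in which low genes are shrunk towards their mean over the libraries, and the depth behind them is unknown. They are not scaled by gene length, so levels are compared between groups of libraries and not between genes.

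Histone tails carry methyl groups on lysine and arginine and acetyl groups on lysine, and each mark has enzymes that add it and enzymes that take it away. Methyl marks on H3K4, H3K36 and H3K79 are found on transcribed genes, those on H3K27 and H3K9 on silenced ones, and acetylation on active promoters and enhancers. In blood-forming cells several of these enzymes are known for their part in self-renewal and leukaemia, among them the H3K4 methyltransferase Kmt2a, the H3K79 methyltransferase Dot1l, the polycomb enzyme Ezh2 and the acetyltransferase Crebbp.

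The gene-level values of the altered genes were read first. Tet2 differed by -0.04 ± 0.11 (T2F3 minus WT, log2, limma SE) in MPP and by 0.06 ± 0.10 in GMP, with limma adjusted p = 0.783 and 0.762, and since a deletion can leave part of the transcript, these values say nothing for or against the label. Flt3 was 2.43-fold higher in T2F3 GMP (adjusted p = 8.24e-07). The genes of the sorting gate were present: Kit lay at a group mean of 11.29 to 12.30 in the 4 groups, and Fcgr3, which encodes a CD16/32 receptor, averaged 11.01 ± 0.34 in WT GMP and 8.89 ± 0.22 in WT MPP (SD, n = 5 and 4). Of the GMP gate genes Kit, Cd34, Fcgr3 and Fcgr2b, 2 were higher and 2 lower in WT GMP than in WT MPP. These genes summed to 13.09 to 13.21 (log2) in WT GMP and 13.48 to 13.61 in WT MPP. By genotype, 1 of them was higher and 1 lower in T2F3 MPP, and none passed in T2F3 GMP. Of the MPP gate genes Kit, Ly6a and Cd48, 2 were higher and 1 lower in T2F3 MPP, and 2 were higher in T2F3 GMP. Several cell type lists moved with the genotype. None of the 6 late neutrophil genes passed in either population. Of 3 tested T and NK genes 1 was higher and 1 lower in T2F3 MPP, and 1 was higher in T2F3 GMP. The 9 dendritic cell genes included Flt3 itself, and none of them was listed at 0. They had a summed level of 15.14 to 15.97 (log2) in T2F3 MPP against 12.83 to 13.54 in WT MPP, and of 14.68 to 14.88 in T2F3 GMP against 11.79 to 12.07 in WT GMP. The 8 erythroid genes, of which 1 was listed at 0 throughout, summed to 7.28 to 7.50 in T2F3 MPP against 9.86 to 10.48 in WT MPP. In GMP they summed to 7.25 to 7.41 in T2F3 against 8.51 to 9.65 in WT, and all 6 tested were lower in T2F3 in each population. The 7 monocyte and macrophage genes summed to 12.82 to 13.68 in T2F3 MPP against 11.92 to 12.39 in WT MPP and to 14.38 to 14.52 in T2F3 GMP against 13.70 to 13.90 in WT GMP, and of 6 tested 5 were higher in T2F3 MPP and 4 in T2F3 GMP. The 6 basophil and mast cell genes summed to 9.80 to 10.14 in T2F3 MPP against 10.88 to 11.04 in WT MPP and to 9.83 to 10.75 in T2F3 GMP against 12.10 to 12.94 in WT GMP, with 5 lower in T2F3 MPP and all 6 in T2F3 GMP. Of 4 tested B lymphoid genes 3 were lower in T2F3 in each population, with a listed sum of 8.25 to 8.49 in T2F3 MPP and 8.77 to 9.25 in WT MPP, and of 5 tested megakaryocyte genes 2 were lower and 1 higher in T2F3 MPP and 3 lower in T2F3 GMP. Outside the erythroid list, no gene of these lists was at 0 throughout. The part of these cells in the enzyme differences was not tested. Fewer cells of a type and less RNA per cell cannot be told apart in such bulk libraries.

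The first comparison asked how the enzymes differed between T2F3 and WT multipotent progenitors. In T2F3 MPP 30 of the 73 tested members fell, 6 rose and 37 did not pass. The falls made up 41.1% of the tested members and the rises 8.22%, where over all genes 19.6% fell and 20.7% rose. The median difference was -0.21 (log2) over the 73 members and -0.015 over all genes tested, and with the mean level of 78 ribosomal protein genes added to the fit these were -0.12 and -0.003. All 6 H3K4 methyltransferases and 6 of 10 acetyltransferases fell, and the arginine methyltransferases held 2 of the 6 rises and no fall. The T2F3 MPP and WT MPP libraries did not overlap in 49 of 73 members, where over all genes they did not overlap in 54.1%. All 30 that fell and all 6 that rose were among the 49. Calls and overlap were read from the same values, so this adds no separate support, and the matching count over all called genes was not made. None of the 73 passed a test against an absolute log2 difference of 0.5.

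**Figure D1:**
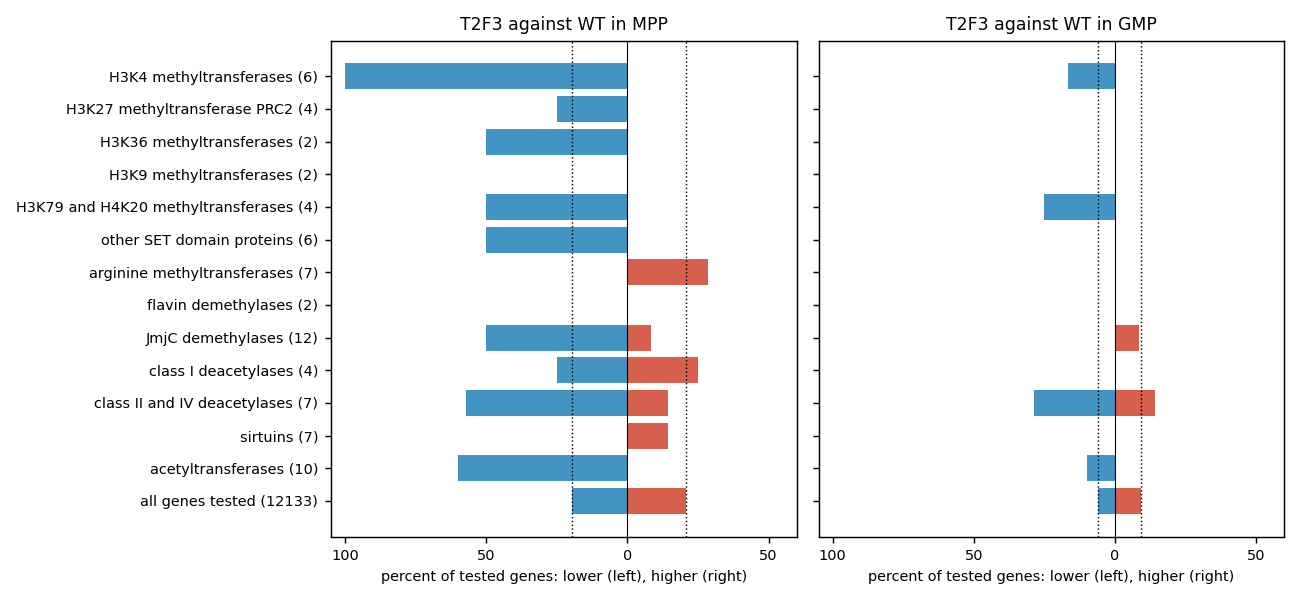
Share of the tested members of each enzyme class that were lower (bars to the left) or higher (bars to the right) in T2F3 than in WT, in percent, for MPP and for GMP, with dotted lines at the shares over all genes tested. In MPP the H3K4 methyltransferase bar reaches 100% on the lower side, and in GMP most bars are short.

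The 6 H3K4 methyltransferases are the catalytic subunits of COMPASS-type complexes, and each of them was lower in T2F3 MPP. Kmt2a, the leukaemia gene also called MLL1, read 11.84, 11.35 and 11.18 in T2F3 MPP, against 12.13, 12.41, 12.24 and 12.15 in WT MPP. It was 1.72-fold lower in T2F3 MPP (-0.78 ± 0.15 log2, limma SE, adjusted p = 0.00112). All 3 T2F3 libraries lay under every WT library, with T2F3 MPP 1 nearest to them. Kmt2d, which with Kmt2c monomethylates H3K4 at enhancers, read 12.90, 12.44 and 12.27 in T2F3 MPP, against 13.13, 13.20, 13.13 and 13.39 in WT MPP and differed by -0.68 ± 0.16 (adjusted p = 0.00400). Setd1b, one of the pair of SET1 enzymes that place H3K4 trimethylation at promoters, read 10.39, 10.11 and 10.03 in T2F3 MPP, against 10.81, 10.90, 10.63 and 11.04 in WT MPP and differed by -0.67 ± 0.14 (adjusted p = 0.00165). Its partner enzyme Setd1a read 10.13, 9.91 and 9.97 in T2F3 MPP, against 10.67, 10.54, 10.51 and 10.64 in WT MPP and was 1.50-fold lower (-0.59 ± 0.10, adjusted p = 5.44e-04). In these 4 genes the groups stood apart in the same order. Kmt2c differed by -0.50 ± 0.13 (adjusted p = 0.00782) and Kmt2b, chosen after its values were seen, by -0.48 ± 0.12 (adjusted p = 0.00553). Without T2F3 MPP 3 Kmt2c missed the threshold (adjusted p = 0.0532). Across the class the median deviation from the WT MPP mean was -0.36 in T2F3 MPP 1, -0.71 in T2F3 MPP 2 and -0.76 in T2F3 MPP 3, so the first library deviated least.

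The other lysine methyltransferases were less uniform. Dot1l, the only known H3K79 methyltransferase, read 10.05, 9.77 and 9.72 in T2F3 MPP, against 10.42, 10.30, 10.31 and 10.51 in WT MPP and was 1.45-fold lower in T2F3 MPP (-0.54 ± 0.11, adjusted p = 0.00154). Nsd1, an H3K36 methyltransferase, differed by -0.42 ± 0.12 (adjusted p = 0.0143), and Setd2, which trimethylates the same residue and was chosen after its values were seen, by -0.24 ± 0.12 (adjusted p = 0.126). Of the polycomb complex PRC2, which methylates H3K27, only the structural subunit Suz12 passed, at -0.30 ± 0.10 (adjusted p = 0.0248). Its catalytic subunit Ezh2, chosen after its values were seen, read 10.24, 10.46 and 10.55 in T2F3 MPP, against 10.52, 10.55, 10.55 and 10.40 in WT MPP. The Ezh2 libraries overlapped, and its adjusted p was 0.445. Neither H3K9 methyltransferase passed, and Ehmt1, also called GLP, stood at 10.17 ± 0.04 in T2F3 MPP and 10.34 ± 0.05 in WT MPP (SD, n = 3 and 4). Of the 4 enzymes for H3K79 and H4K20, Kmt5b fell beside Dot1l, and of 6 other SET domain proteins Kmt2e, Setd5 and Setd7 fell, the largest change being that of Kmt2e at -0.50 ± 0.13 (adjusted p = 0.00645). Left-out libraries ended 2 of the calls detailed here, that of Nsd1 without T2F3 MPP 3 (adjusted p = 0.0604) and that of Suz12 without T2F3 MPP 1 (0.116) or WT MPP 1 (0.0645).

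Among the demethylases the largest fall and one of the largest rises of all members stood side by side. Kdm5b, which removes methyl groups from H3K4, read 9.53, 9.0 and 9.16 in T2F3 MPP, against 10.02, 10.32, 10.10 and 10.15 in WT MPP. It was 1.89-fold lower in T2F3 MPP (-0.92 ± 0.14, adjusted p = 1.33e-04), the largest absolute difference of the 73 members in MPP. Kdm7a, which acts on H3K9 and H3K27, read 9.50, 10.06 and 9.85 in T2F3 MPP, against 8.84, 9.39, 9.36 and 9.17 in WT MPP and was 1.53-fold higher (0.61 ± 0.16, adjusted p = 0.00889). The lowest T2F3 library of Kdm7a, T2F3 MPP 1, lay just above the highest WT library. Without T2F3 MPP 2 Kdm7a missed the threshold (adjusted p = 0.0608). Of the 12 tested JmjC demethylases, which use iron and oxoglutarate, 6 fell and 1 rose. The falls besides Kdm5b were Kdm2a, Kdm2b, Kdm3b, Kdm4b and Kdm6b, named after their values were seen, with differences from -0.28 (Kdm3b) to -0.49 (Kdm6b). Neither of the 2 flavin-dependent demethylases passed. Kdm1a, also called LSD1, averaged 9.94 ± 0.10 in T2F3 MPP and 9.94 ± 0.06 in WT MPP (SD, n = 3 and 4), and Kdm1b, an oocyte-imprinting H3K4 demethylase, 7.84 ± 0.05 in T2F3 MPP and 7.70 ± 0.21 in WT MPP.

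**Figure D2:**
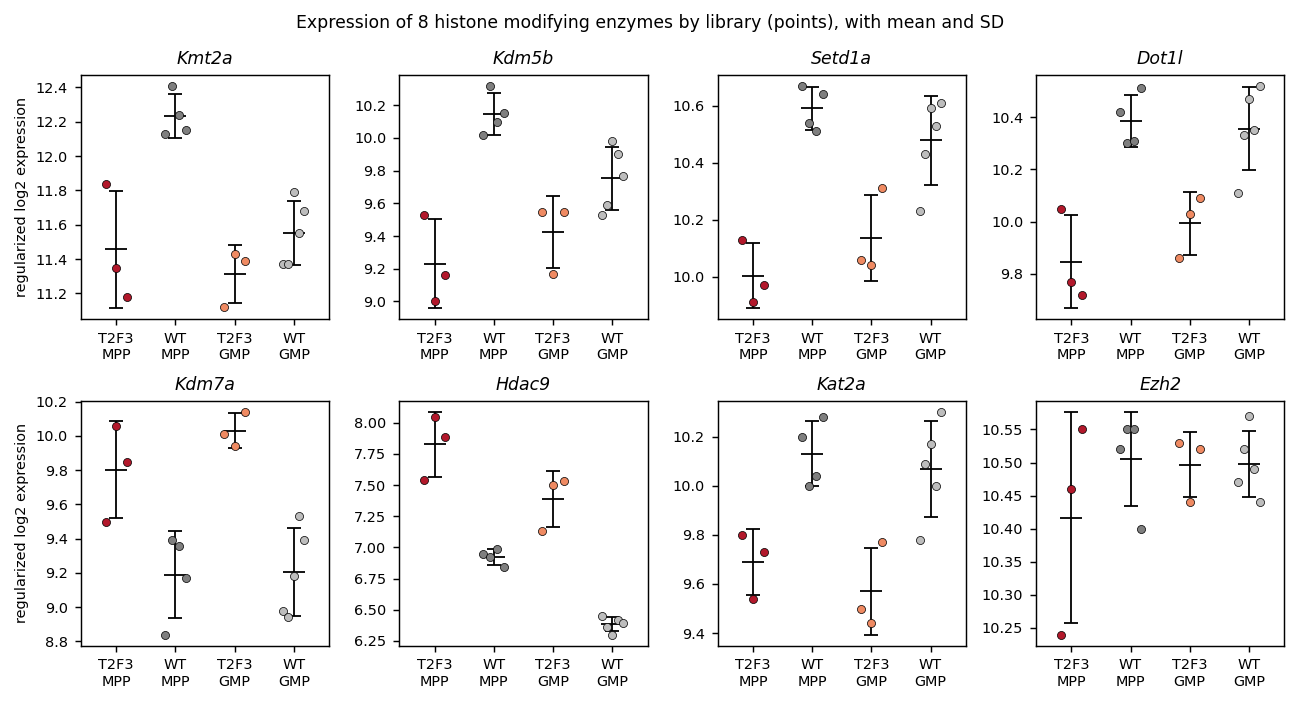
Deposited log2 values of 8 members in each of the 15 libraries (points), with the mean and SD of each group, T2F3 left of WT in each population. Kmt2a, Kdm5b, Setd1a and Dot1l lie lower in T2F3 MPP than in WT MPP, Kdm7a and Hdac9 lie higher in T2F3 in both populations, Kat2a lies lower in both, and the Ezh2 groups overlap.

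The deacetylases moved both ways. Hdac9, a class IIa deacetylase that binds MEF2 transcription factors, read 7.54, 8.05 and 7.89 in T2F3 MPP, against 6.95, 6.92, 6.99 and 6.84 in WT MPP. It was 1.87-fold higher in T2F3 MPP (0.90 ± 0.12, adjusted p = 4.40e-05), and its lowest T2F3 library lay well above every WT library. The 2 other class IIa genes that passed went down. Hdac7 read 9.99, 9.77 and 9.77 in T2F3 MPP, against 10.58, 10.39, 10.33 and 10.47 in WT MPP and was 1.52-fold lower (-0.60 ± 0.10, adjusted p = 4.51e-04). Hdac4 read 8.39, 8.20 and 8.20 in T2F3 MPP, against 8.87, 8.80, 8.78 and 8.90 in WT MPP and was 1.49-fold lower (-0.57 ± 0.12, adjusted p = 0.00170). Thus Hdac9 was higher while its class IIa relatives Hdac4 and Hdac7 were lower in the same libraries. Of the 7 class II and IV members 4 fell, with Hdac6 and Hdac10 as the others, and 1 rose. In class I, Hdac1, a catalytic subunit of the NuRD and SIN3 complexes, rose by 0.37 ± 0.09 (adjusted p = 0.00438), Hdac8, named after its values were seen, fell by 0.35 ± 0.09 (adjusted p = 0.00551), and Hdac2 and Hdac3 did not pass. Of the 7 sirtuins, deacylases that use NAD, only the nucleolar Sirt7 passed, at 0.37 ± 0.12 (adjusted p = 0.0268). The Sirt7 call ended without T2F3 MPP 2 (adjusted p = 0.131) and without WT MPP 1, 3 or 4 (0.0524, 0.0585 and 0.0506).

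Acetyltransferases were lower where they passed. Crebbp, which with its paralog Ep300 acetylates H3K27 at enhancers, read 10.33, 10.22 and 10.10 in T2F3 MPP, against 10.69, 10.98, 10.74 and 10.79 in WT MPP and was 1.50-fold lower (-0.58 ± 0.13, adjusted p = 0.00302). Kat6b, a MYST-family H3 acetyltransferase, read 8.37, 8.31 and 8.31 in T2F3 MPP, against 8.85, 8.85, 8.75 and 8.82 in WT MPP and differed by -0.49 ± 0.09 (adjusted p = 8.87e-04). Both groups of Kat6b were tight and lay far apart for their spread. Kat2a, the GCN5 subunit of SAGA, differed by -0.44 ± 0.12 (adjusted p = 0.0109), and Ep300, chosen after its values were seen, by -0.40 ± 0.14 (adjusted p = 0.0293). Kat6a and Kat7 were the other falls, and Kat14, Kat2b, Kat5 and Kat8 did not pass. The Kat2a call ended without T2F3 MPP 2 (adjusted p = 0.0652) and that of Ep300 without T2F3 MPP 2 or 3 (0.0658 and 0.106) or WT MPP 3 or 5 (0.0836 and 0.0576). With the mean level of the ribosomal protein genes as a covariate Crebbp and Kat6b passed, while Ep300 (-0.082), Kat6a (-0.11), Kat7 (-0.18) and Kat2a (-0.20) did not, with adjusted p from 0.118 (Kat7) to 0.578 (Ep300).

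Of the 7 tested arginine methyltransferases 2 rose and none fell in T2F3 MPP. That is 28.6%, where over all genes 20.7% rose, and the class median was 0.05. Prmt1, which makes most of the asymmetric dimethylarginine in cells, read 10.70, 10.83 and 11.01 in T2F3 MPP, against 10.63, 10.40, 10.45 and 10.61 in WT MPP. It rose by 0.32 ± 0.10 (adjusted p = 0.0217), though T2F3 MPP 1 lay only just above WT MPP 1. Prmt7, a monomethylating enzyme, read 9.53, 9.48 and 9.66 in T2F3 MPP, against 9.24, 9.15, 9.28 and 9.24 in WT MPP and rose by 0.32 ± 0.10 (adjusted p = 0.0155). The other 5 tested members of the class did not pass. Prmt7 missed the threshold without T2F3 MPP 3 (adjusted p = 0.0791), and Prmt1, chosen after its values were seen, without T2F3 MPP 2 or 3 (0.0610 and 0.118) or WT MPP 3 or 4 (0.0635 and 0.0538). Both calls ended once the ribosomal protein score was in the fit (adjusted p = 0.225 for Prmt7 and 0.0789 for Prmt1).

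**Figure D3:**
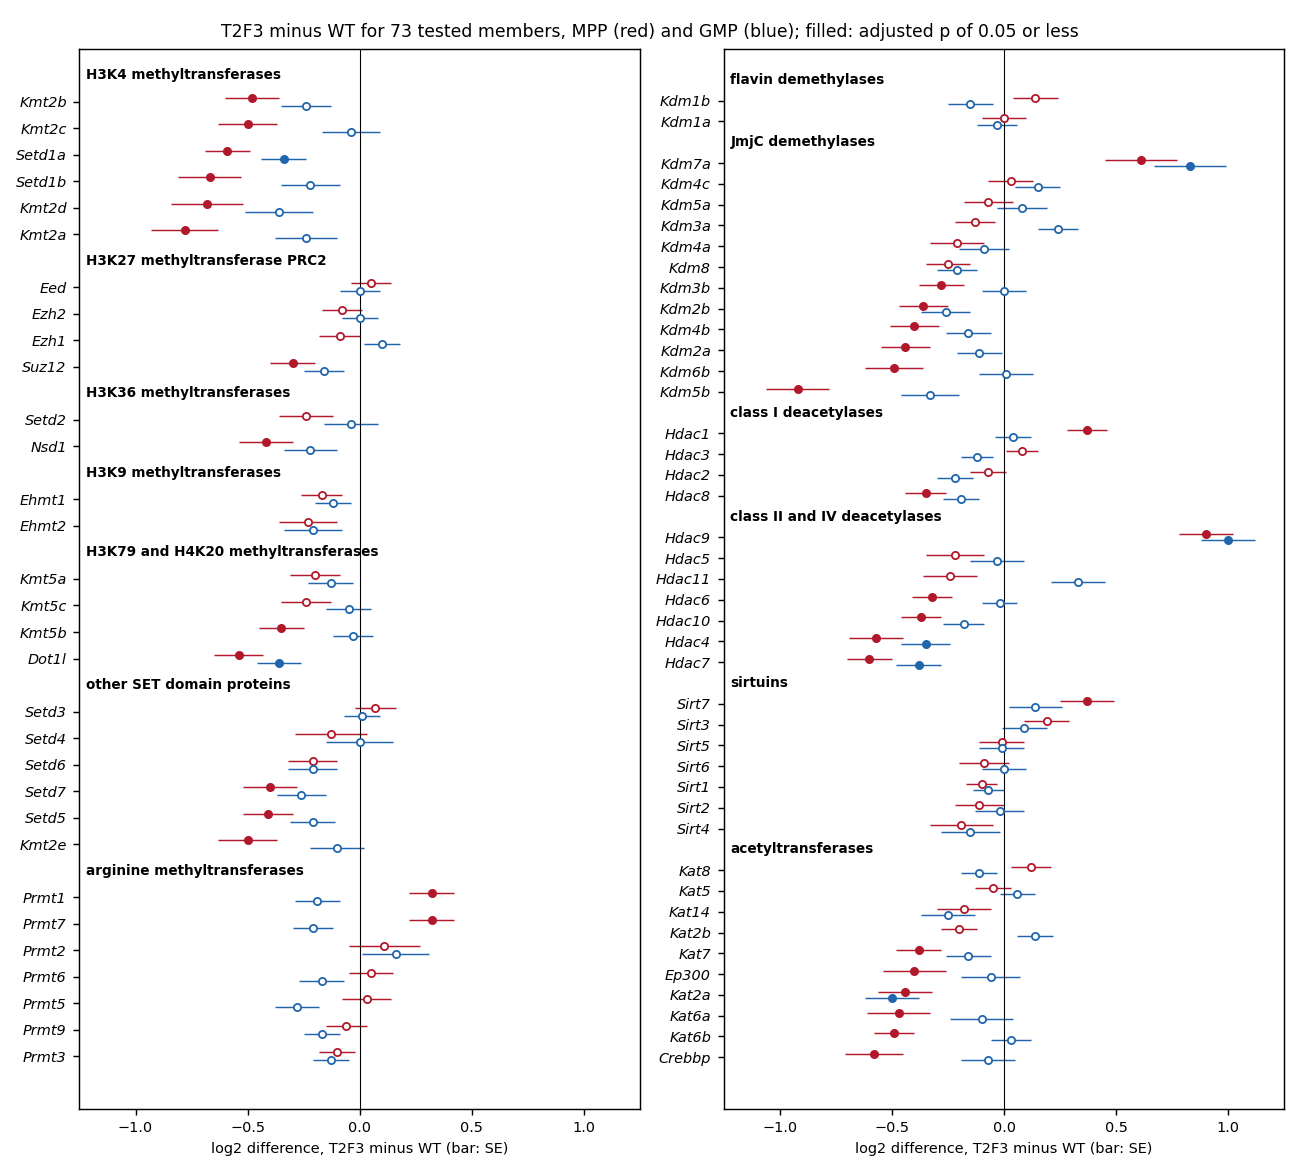
Difference T2F3 minus WT (log2, with the limma SE) of the 73 tested members, grouped by enzyme class, in MPP (red) and in GMP (blue), with filled symbols for members at or under an adjusted p of 0.05. Most filled symbols are red and lie left of 0, and Hdac9 and Kdm7a lie right of 0 in both populations.

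The ribosomal protein genes also moved with the MPP comparison. The mean log2 value of 78 ribosomal protein genes was 12.90 to 12.93 in T2F3 MPP and 12.17 to 12.27 in WT MPP, and 61 of the 78 passed as higher. Within MPP the score hardly varied inside a genotype, so score and genotype cannot be told apart there. The slope of the covariate came mainly from GMP, where the score ran from 12.55 to 13.46 in T2F3 and from 12.41 to 13.52 in WT. This limit holds for every MPP result of that fit given in the text. With that score as a covariate, 16 members were lower and 5 higher in T2F3 MPP, of which 14 and 3 were among those named by the fit without it. Besides the 4 acetyltransferases, the falls that no longer passed were those of Kdm2a, Kdm2b, Kdm3b, Kdm4b and Kdm6b among the demethylases, of Kmt2b, Kmt2e, Nsd1, Setd5, Setd7 and Suz12 among the methyltransferase genes, and of Hdac6. The rises lost were those of Prmt1, Prmt7 and Sirt7. The 12 proliferation genes summed to 14.52 to 14.83 in T2F3 MPP and 14.65 to 14.88 in WT MPP, and their part in the enzyme differences was not tested. Leaving out 1 library at a time gave between 27 (without T2F3 MPP 2 or 3) and 38 (without WT GMP 1) passing members, and 22 of the 36 passed in every such fit. Besides the members detailed above, the calls that ended at least once were those of Kdm2b (highest adjusted p = 0.0516, without T2F3 MPP 1), Kdm3b (0.116, without T2F3 MPP 1), Kmt5b (0.0614, without T2F3 MPP 3), Setd7 (0.0649, without T2F3 MPP 2) and Kat6a (0.0598, without T2F3 MPP 2).

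The genes that worked with the enzymes were read next, from 5 lists of 75 partner genes. In T2F3 MPP 31 of the 75 fell and 2 rose, with a median difference of -0.21, where over all genes 19.6% fell and 20.7% rose. Of 10 COMPASS partners, which hold the H3K4 methyltransferases together, 6 fell and none rose. The largest passing change among them was that of Hcfc1, a host cell factor that tethers SET1 complexes to chromatin, at -0.54 ± 0.15 (adjusted p = 0.0117). The 1 COMPASS partner above 0 differed by 0.69 and did not pass. Of 18 PRC1 genes 5 fell, led by Phc1, a polyhomeotic subunit, with 8.18 ± 0.06 in T2F3 MPP and 8.89 ± 0.13 in WT MPP (SD, n = 3 and 4) and a difference of -0.71 ± 0.12 (adjusted p = 2.58e-04). Of 18 corepressor scaffolds 9 fell and 1 rose. The rise was Sap30, a SIN3 complex subunit, at 0.61 ± 0.11 (adjusted p = 5.65e-04). Among 7 PRC2 partners the histone chaperone Rbbp4, which also serves the HDAC1 complexes, rose by 0.65 ± 0.18 (adjusted p = 0.0119) and 1 fell. Of 22 histone enzymes with other symbols 10 fell, led by Ash1l, an H3K36 methyltransferase, at -0.55 ± 0.12 (adjusted p = 0.00314). Hcfc1 (adjusted p = 0.200) and Rbbp4 (0.220) no longer passed once the ribosomal protein score was added to the fit.

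Promoter sequences are shown for the members with the largest rises and falls, because CpG dinucleotides are where Tet2 and the CXXC domain proteins of the COMPASS complexes act. The 250 bases before the RefSeq start of each gene (GRCm38.p6, which is not the build of the submitters' notes) are printed 5′ to 3′ on the strand of the gene, with CpG in capitals. The Hdac9 windows lie at chr12:34528890-34529139 and chr12:34917096-34917345 (both minus strand), that of Kdm7a at chr6:39206774-39207023 (minus), that of Kdm5b at chr1:134559928-134560177 (plus) and that of Kmt2a at chr9:44881290-44881539 (minus).
Hdac9 start 1: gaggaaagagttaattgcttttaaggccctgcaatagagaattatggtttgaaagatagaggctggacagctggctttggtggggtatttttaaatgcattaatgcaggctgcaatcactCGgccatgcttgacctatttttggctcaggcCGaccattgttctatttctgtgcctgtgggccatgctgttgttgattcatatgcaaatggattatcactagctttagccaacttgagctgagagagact
Hdac9 start 2: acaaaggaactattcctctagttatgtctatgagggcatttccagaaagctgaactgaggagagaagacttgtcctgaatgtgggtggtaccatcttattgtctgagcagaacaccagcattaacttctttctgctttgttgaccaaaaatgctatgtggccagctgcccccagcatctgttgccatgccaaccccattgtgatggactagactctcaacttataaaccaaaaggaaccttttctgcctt
Kdm7a: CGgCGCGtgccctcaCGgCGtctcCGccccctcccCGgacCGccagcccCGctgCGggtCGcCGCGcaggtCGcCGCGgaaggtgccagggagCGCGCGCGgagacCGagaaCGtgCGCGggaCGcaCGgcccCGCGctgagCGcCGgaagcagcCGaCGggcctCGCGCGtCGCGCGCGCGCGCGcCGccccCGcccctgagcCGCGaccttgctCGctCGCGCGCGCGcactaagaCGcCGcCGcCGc
Kdm5b: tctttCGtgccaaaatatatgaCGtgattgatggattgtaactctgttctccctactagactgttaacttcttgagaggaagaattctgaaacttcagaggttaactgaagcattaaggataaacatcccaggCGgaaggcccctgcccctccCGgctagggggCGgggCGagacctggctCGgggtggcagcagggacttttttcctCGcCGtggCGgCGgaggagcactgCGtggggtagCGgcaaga
Kmt2a: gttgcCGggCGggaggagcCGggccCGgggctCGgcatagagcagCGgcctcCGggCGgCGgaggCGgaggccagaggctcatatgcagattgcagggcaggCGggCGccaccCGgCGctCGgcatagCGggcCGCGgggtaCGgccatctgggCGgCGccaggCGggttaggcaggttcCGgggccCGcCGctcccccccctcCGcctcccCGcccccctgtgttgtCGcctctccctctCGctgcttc

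The Hdac9 windows held 2 and 0 CpG, against 56 in that of Kdm7a, 13 in that of Kdm5b and 29 in that of Kmt2a, so the 2 members that rose most differed widely. RefSeq starts were at hand for 62 of the 75 members, with 84 starts. The median was 18 CpG per window over the members and 15 over all 12302 starts of 9704 tested genes. Fewer than 5 CpG were found in 5.95% of member windows and 15.2% of all windows. Windows of the members that fell in T2F3 MPP held a median of 25 CpG (20 genes, 28 starts), those of the members that rose 12.5 (5 genes, 6 starts) and those of the members that did not pass 17 (35 genes, 47 starts). The STAT-type motif TTCNNNGAA, which reads the same on both strands, was in 7.14% of the 84 member windows and 6.0% of all windows, and in none of the windows printed here. By call in T2F3 MPP it was in 4 of 28 windows (14.3%) of members that fell and 1 of 6 (16.7%) of those that rose. Of these 4 windows 2 were separate starts of Hdac7, and the others were those of Kmt2d and Setd7. The window among the rises was that of Sirt7. Among members that did not pass it was in 1 of 47 (2.13%). These counts describe letters in a window and carry no test.

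The second comparison put the same question to granulocyte-macrophage progenitors. Fewer enzymes passed: 2 rose and 5 fell in T2F3 GMP, where over all genes 9.25% rose and 6.04% fell. The 5 falls were 6.85% of the 73 members and the 2 rises 2.74%, so the falls were near the background share. The median difference was -0.11 over the members and -0.019 over all genes. The T2F3 GMP and WT GMP libraries did not overlap in 11 of the 73 members, where 17.0% of all genes did not. All 7 members that passed in GMP had passed in MPP with the same sign. The matching count over all genes was not made. The genotype differences in MPP and GMP had a Pearson r of 0.65 over the members and 0.76 over all genes.

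Hdac9 again led the rises. Its GMP values were 7.13, 7.50 and 7.53 in T2F3 GMP, against 6.45, 6.36, 6.30, 6.42 and 6.39 in WT GMP, and it was 2.00-fold higher (1.00 ± 0.12 log2, adjusted p = 1.37e-05). It was the only member past a test against an absolute log2 difference of 0.5 in this comparison. Kdm7a read 10.01, 9.94 and 10.14 in T2F3 GMP, against 8.98, 8.94, 9.18, 9.53 and 9.39 in WT GMP and was 1.77-fold higher (0.83 ± 0.16, adjusted p = 0.00151). In both genes every T2F3 GMP library lay above every WT GMP library. Kat2a led the falls, with 9.50, 9.44 and 9.77 in T2F3 GMP, against 9.78, 10.09, 10.17, 10.00 and 10.30 in WT GMP and a difference of -0.50 ± 0.12 (adjusted p = 0.00779). Its highest T2F3 library fell just short of the lowest WT library, WT GMP 1. The other falls were Hdac7 at -0.38 ± 0.10 (adjusted p = 0.0169), Dot1l at -0.36 ± 0.10 (adjusted p = 0.0271), Hdac4 at -0.35 ± 0.11 (adjusted p = 0.0471) and Setd1a at -0.34 ± 0.10 (adjusted p = 0.0297). The groups of Hdac7 and Dot1l stood apart, while in Hdac4 and Setd1a the values of T2F3 GMP 3 and of the lowest WT libraries overlapped or met.

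Most enzymes that fell in T2F3 MPP did not pass in GMP. Kmt2a averaged 11.31 ± 0.17 in T2F3 GMP and 11.55 ± 0.19 in WT GMP (SD, n = 3 and 5), a difference of -0.24 ± 0.14 with adjusted p = 0.287. Kdm5b averaged 9.42 ± 0.22 in T2F3 GMP and 9.75 ± 0.19 in WT GMP, a difference of -0.33 ± 0.13 with adjusted p = 0.107. Crebbp stood at 10.24 ± 0.18 in T2F3 GMP and 10.30 ± 0.23 in WT GMP (adjusted p = 0.769), and Kat6b at 8.13 ± 0.15 in T2F3 GMP and 8.10 ± 0.14 in WT GMP (adjusted p = 0.875). In all 4 genes the libraries of both groups overlapped. In the classes without a call, the member with the smallest p was Suz12 (-0.16 ± 0.09, adjusted p = 0.269) in PRC2, Nsd1 (-0.22 ± 0.12, 0.223) for H3K36, Ehmt2 (adjusted p = 0.283) for H3K9, Setd7 (0.128) among the other SET proteins and Prmt5 (0.0804) among the arginine methyltransferases. It was Kdm1b (0.343) among the flavin demethylases, Hdac2 (0.0621) in class I and Sirt7 (0.449) among the sirtuins. Of the 75 partner genes 1 rose and 3 fell in GMP, where over all genes 9.25% rose and 6.04% fell. The rise was Padi4, which converts arginine to citrulline and is known from neutrophils, with 9.79, 9.40 and 9.39 in T2F3 GMP, against 8.62, 8.65, 8.14, 9.45 and 8.98 in WT GMP and adjusted p = 0.0401. Its groups overlapped, and the call ended without T2F3 GMP 1 (adjusted p = 0.151).

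The GMP count rested on single libraries more than the MPP count did. It was 18 without WT GMP 1, 3 without T2F3 GMP 1 or T2F3 GMP 2, 4 without WT GMP 3 or WT GMP 5, and 3 when only the GMP libraries were fitted, and it was 22 when libraries were weighted by their quality. Hdac9, Kdm7a and Kat2a passed with each library left out, whereas Dot1l, Hdac4, Hdac7 and Setd1a did not, with highest adjusted p of 0.115, 0.162, 0.0926 and 0.131 in that order, without T2F3 GMP 1 for Dot1l and Hdac7 and without T2F3 GMP 2 for Hdac4 and Setd1a. The ribosomal protein score was 13.46 in T2F3 GMP 2 and 13.52 in WT GMP 1, and 12.41 to 12.86 in the T2F3 GMP and WT GMP libraries other than these. With this score in the fit 12 members passed, 4 higher and 8 lower, and without these libraries 10 passed.

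**Figure D4:**
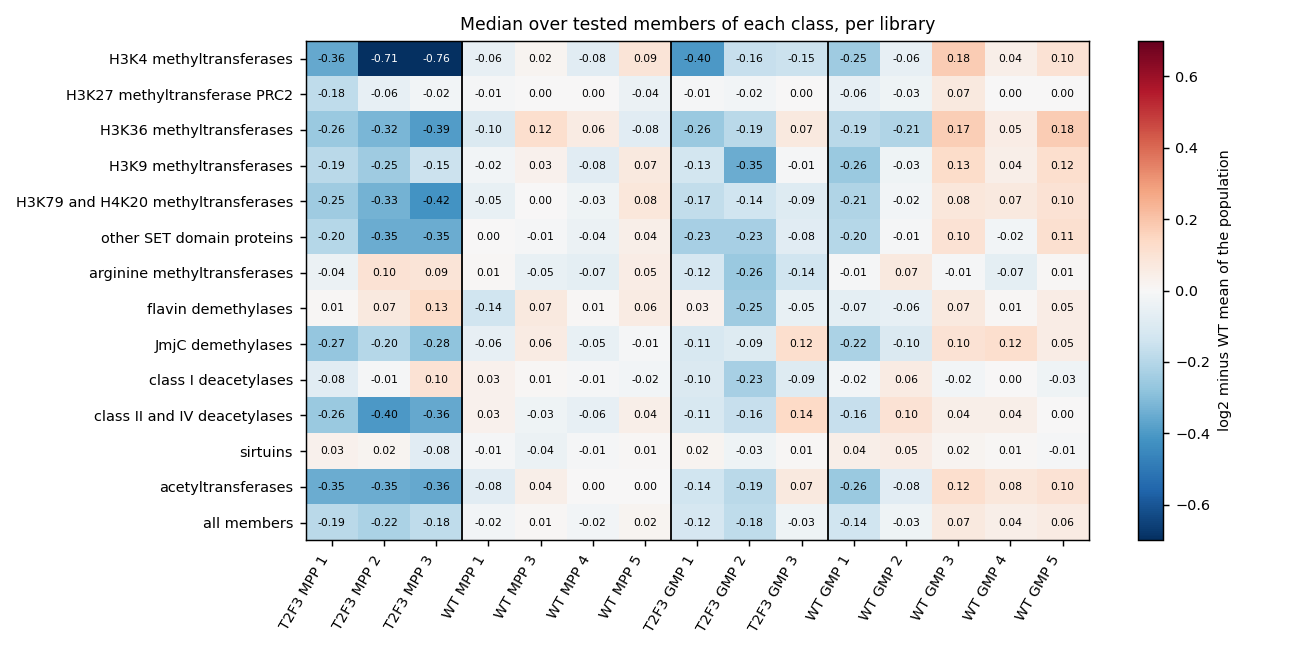
Median over the members of each enzyme class of the log2 value minus the WT mean of the same population, for each of the 15 libraries. T2F3 MPP 2 and T2F3 MPP 3 are lowest for the H3K4 methyltransferases, at -0.71 and -0.76, and WT GMP 1 also lies below the other WT GMP libraries there, at -0.25.

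The 2 genotype comparisons share no library, so their values can be set side by side. Over the 73 members the differences in MPP and GMP had a Pearson r of 0.65 and a Spearman rho of 0.51, and over all 12133 genes tested these were 0.76 and 0.65. The sign was the same in 55 of 73 members and in 8982 of 12133 genes. These are descriptions across genes, which are not independent replicates. Of the 73 members 56 were below 0 in each population, while of all genes 6244 were in MPP and 6425 in GMP.

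Whether a genotype effect differed between the populations was tested as the difference of the effects, GMP minus MPP. Of the 73 members 1 was higher and 1 lower, where over all genes 1.38% were higher and 0.882% lower. Kat6b gave 0.51 ± 0.13 (adjusted p = 0.0481): it was 1.40-fold lower in T2F3 MPP, while T2F3 GMP (8.13 ± 0.15) and WT GMP (8.10 ± 0.14) overlapped. Prmt7 gave -0.54 ± 0.13 (adjusted p = 0.0481), with 9.39, 9.38 and 9.25 in T2F3 GMP, against 9.79, 9.62, 9.38, 9.41 and 9.55 in WT GMP. Most T2F3 GMP values of Prmt7 lay under most WT GMP values (adjusted p = 0.130 in GMP), the reverse of the order in MPP. Neither call held in every fit with 1 library left out: that of Kat6b reached adjusted p = 0.149 without T2F3 GMP 3 and that of Prmt7 0.161 without T2F3 MPP 3. The count was 0 under each of no filter, a minimum mean of 6 and no trend or robust step, 1 higher and 0 lower under median centring or quantile normalization, 5 without T2F3 MPP 1, 7 without WT GMP 1 and T2F3 GMP 2, 4 with the ribosomal protein score in the fit and 9 under array weights. Other differences of effects were as large without passing, such as Kdm5b at 0.59 ± 0.19 (adjusted p = 0.122), Hdac11 at 0.58 ± 0.17 (0.0860), Kmt2a at 0.54 ± 0.21 (0.177), Crebbp at 0.52 ± 0.18 (0.139) and Prmt1 at -0.51 ± 0.14 (0.0684). The effects of the other enzymes that passed in MPP alone are thus not shown to differ between MPP and GMP.

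The last comparisons followed the enzymes across populations, GMP against MPP within a genotype. Between the WT populations 21 members were lower and 6 higher in GMP, where over all genes 23.2% were lower and 25.4% higher. Under quantile normalization the split was 32 lower and 3 higher. Between the T2F3 populations 5 members were lower and 2 higher in GMP, where over all genes 11.7% were lower and 10.5% higher, and under median centring the split was 5 lower and 1 higher. The balance of the T2F3 step turned with other settings: it was 7 lower and 10 higher with the ribosomal protein score in the fit, 4 lower and 8 higher without WT GMP 1 and T2F3 GMP 2, and 7 lower and 7 higher under array weights. In WT the ribosomal protein score gave 17 lower and 11 higher, and 15 of the 21 falls still passed. The median difference of the members in WT was -0.1, and 0.0 with the score in the fit. Over all genes these were 0.031 and 0.028. Of the 78 ribosomal protein genes 30 were higher and 0 lower in WT GMP than in WT MPP, and none passed in the T2F3 step. The T2F3 step had fewer libraries than the WT step.

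Hdac11, the only class IV deacetylase, changed most between the populations. In WT it read 4.90, 5.20, 4.87, 4.96 and 4.84 in WT GMP, against 6.70, 6.51, 6.52 and 6.63 in WT MPP, and it was 3.11-fold lower in GMP (-1.64 ± 0.11, adjusted p = 5.84e-09). In T2F3 it read 5.24, 5.17 and 5.46 in T2F3 GMP, against 6.40, 6.19 and 6.46 in T2F3 MPP and was 2.09-fold lower (-1.06 ± 0.13, adjusted p = 1.42e-05). The GMP and MPP libraries were well apart in both genotypes. Sirt3, the main mitochondrial deacetylase, was lower in GMP in both, at -0.47 ± 0.09 (adjusted p = 4.33e-04) in WT and -0.57 ± 0.11 (adjusted p = 0.00109) in T2F3. Hdac9 was lower in GMP as well, at -0.54 ± 0.11 in WT (adjusted p = 6.12e-04) and -0.44 ± 0.13 in T2F3 (adjusted p = 0.0226). Prmt2 (-0.55 ± 0.14 in WT, -0.50 ± 0.17 in T2F3) and the desuccinylase Sirt5 (-0.37 ± 0.09 and -0.37 ± 0.11) also fell in both. The H4K20 monomethyltransferase Kmt5a, which acts in mitosis, rose in both (0.34 ± 0.09 in WT, 0.41 ± 0.12 in T2F3). Kmt5c, which adds further methyl groups to H4K20, rose in T2F3 (0.35 ± 0.11, adjusted p = 0.0335) and did not pass in WT (adjusted p = 0.166). Under quantile normalization Prmt2 and Sirt5 missed the threshold in both genotypes (Prmt2 adjusted p = 0.234 in WT and 0.244 in T2F3, Sirt5 0.240 and 0.218). The 12 proliferation genes moved with this step, with 8 higher in GMP in WT and 5 in T2F3, and their part in it was not tested. Cell type lists moved with it too. All 6 late neutrophil genes were higher in GMP in both genotypes, with a median of 2.66 in WT and 3.44 in T2F3. All 9 dendritic cell genes, Flt3 among them, were lower in GMP, with medians of -1.04 in WT and -0.87 in T2F3. Of the 6 basophil and mast cell genes 5 were higher and 1 lower in WT (median 2.15), and 3 higher and 1 lower in T2F3 (median 0.94). The part of these cells in the step was not tested.

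In WT the lower enzymes came from several classes. Kmt2a read 11.37, 11.37, 11.79, 11.55 and 11.68 in WT GMP, against 12.13, 12.41, 12.24 and 12.15 in WT MPP and was 1.61-fold lower in GMP (adjusted p = 4.84e-04). Kat6b read 7.96, 7.99, 8.11, 8.29 and 8.17 in WT GMP, against 8.85, 8.85, 8.75 and 8.82 in WT MPP and was 1.64-fold lower (adjusted p = 2.35e-06), the smallest adjusted p of this step after Hdac11. Crebbp (-0.50 ± 0.11), Hdac6 (-0.48 ± 0.08), Hdac7 (-0.47 ± 0.09), Kmt2c (-0.47 ± 0.11) and Kdm5b (-0.40 ± 0.12) fell too, with adjusted p from 8.18e-05 (Hdac6) to 0.0145 (Kdm5b). The Kdm5b call ended without WT MPP 3 (adjusted p = 0.0550), and also with the ribosomal protein score in the fit. Sirt7 was the largest rise, with 10.06, 9.86, 9.62, 9.86 and 9.58 in WT GMP, against 9.26, 9.22, 9.25 and 9.32 in WT MPP and a difference of 0.53 ± 0.11 (adjusted p = 7.66e-04). In T2F3 the same step did not pass for Kat6b (-0.20 ± 0.10, adjusted p = 0.175) or Hdac7 (-0.25 ± 0.11, adjusted p = 0.130), and Kmt2a averaged 11.31 ± 0.17 in T2F3 GMP and 11.46 ± 0.34 in T2F3 MPP (SD, n = 3 each, adjusted p = 0.608). The difference between the T2F3 and WT steps is the same contrast as the difference of the genotype effects. Kmt2a and Hdac7 did not pass in it, and the Kat6b call did not hold with each library left out. The WT step and the MPP genotype comparison share the WT MPP libraries, so the enzymes low in both are low against the same 4 libraries.

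Leaving out 1 library moved the T2F3 count to between 3 and 10, with 3 without T2F3 MPP 2 and 4 without T2F3 MPP 3. Hdac11 and Sirt3 passed in all of those fits, and the others each lost the call at least once, with a highest adjusted p of 0.129 for Hdac9, 0.176 for Prmt2, 0.0645 for Sirt5, 0.0961 for Kmt5a and 0.148 for Kmt5c, without T2F3 GMP 1 (Hdac9 and Kmt5a), T2F3 MPP 1 (Prmt2), T2F3 MPP 2 (Sirt5) and T2F3 MPP 3 (Kmt5c). The WT count lay between 20 and 30 in such fits.

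**Figure D5:**
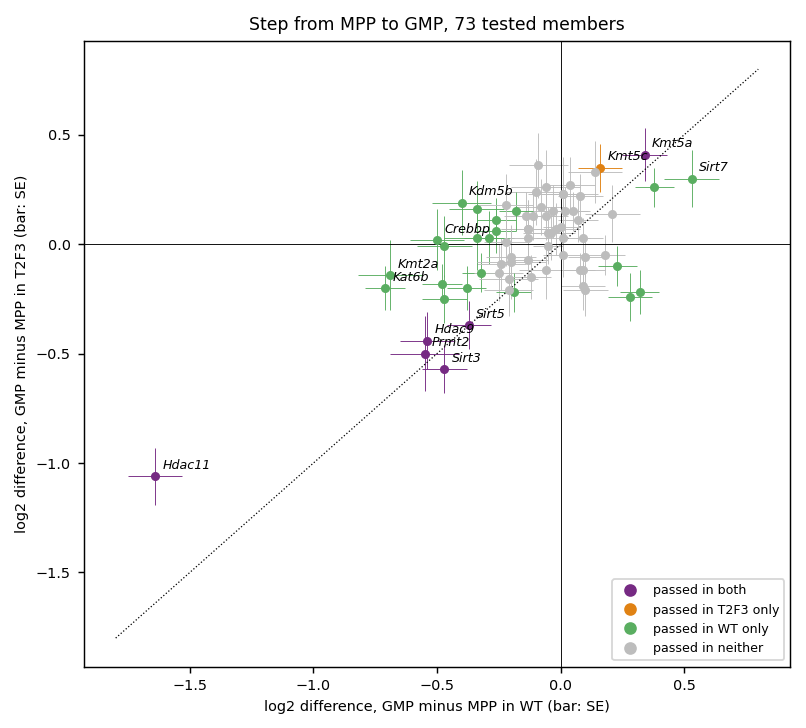
Difference GMP minus MPP (log2) of the 73 tested members in WT (horizontal axis) and in T2F3 (vertical axis), with symbols for the genotype in which a member passed. Hdac11 lies farthest out at -1.64 in WT and -1.06 in T2F3, and members such as Kmt2a and Kat6b lie left of 0 in WT with T2F3 values nearer to 0.

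The steps of the 2 genotypes share no library. Their differences had a Pearson r of 0.63 and a Spearman rho of 0.41 over the members, and of 0.81 and 0.71 over all genes tested. The sign was the same in 38 of 73 members and in 8871 of 12133 genes. Of the members, 6 passed in both steps with the same sign, 21 in the WT step alone and 1 in the T2F3 step alone. Passing in 1 step alone does not show that the steps differ, and only Kat6b and Prmt7 passed the test of that difference. Over all genes the WT step also had more calls, with 25.4% higher and 23.2% lower, against 10.5% and 11.7% in the T2F3 step. In all, 26 of the 73 tested members passed none of the 5 contrasts, among them Ezh2, Eed, Kdm1a, Hdac2, Hdac3 and Sirt1, named after their values were seen. The matching counts of these patterns over all genes were not made. Kdm4d, at 0.60 ± 0.11 in T2F3 MPP and 0.54 ± 0.05 in WT MPP (SD, n = 3 and 4), and Prmt8, at -0.53 ± 0.01 in T2F3 MPP and -0.60 ± 0.05 in WT MPP, were too low to test.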

How the data were processed

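RNA of MPP and GMP from T2F3 and WT mice was sequenced from stranded mRNA libraries (per the labels). A table was deposited by the authors, with regularized log2 values for 24424 genes under Entrez IDs. Per the submitters' processing notes, mm9, STAR, HOMER, Bowtie and DESeq2 were used, with no versions or roles given. Regularized log values understate differences of low genes, and without counts no counting error can be given. Symbols came from the NCBI gene table of GRCm38.p6 (24345 of 24424 IDs matched). Of the 56 samples in the series, the 41 for hydroxymethylcytosine and input were not used here.

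All genes averaging 4 or more across the 15 libraries were fitted with 1 mean per group in limma 3.58.1 (R 4.3.3; eBayes with trend and robust). There were 5 contrasts: the genotype effect (T2F3 minus WT) in each population, its difference between populations, and the step (GMP minus MPP) within each genotype. All were two-sided, with Benjamini-Hochberg adjustment over all 12133 genes and a threshold of 0.05. The script was tested on simulated data. Tables were handled in pandas 2.3.3 under Python 3.11.15, and figures drawn with Matplotlib 3.10.9. The members, classes, partner lists and alternatives were chosen with earlier results of these data known. Named members were up to 12 with the largest passing difference in each contrast, the member of each class with the smallest p in MPP and in GMP, members too low to test and the leading gene of each partner list. Any other member, including those listed only by class, was named after its values were seen. Alternatives were other filters, a pseudocount of 8, other scalings, variance models and sample sets, a test against 0.5 log2, replicate blocks, a ribosomal protein covariate and left-out libraries.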

Additional observations from a re-analysis of the deposited data

Results flagged for a closer look

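In 7 of 146 groups of libraries of tested members, the lowest or highest library lay far from its neighbours by Dixon's test, and chance flags about 1 in 20 groups. In WT MPP, Kdm3b was highest in WT MPP 3 (11.4, next 11.33), Kmt2e was highest in WT MPP 3 (11.1, next 10.83), Kdm1b was lowest in WT MPP 1 (7.39, next 7.77) and Setd4 was lowest in WT MPP 5 (5.83, next 6.12). In WT GMP, Kmt5b was lowest in WT GMP 2 (9.31, next 9.58), Kdm4b was lowest in WT GMP 1 (8.29, next 8.53) and Sirt2 was lowest in WT GMP 1 (8.08, next 8.43).

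The genotype effect differed between the populations by the limma test for Kat6b, at 0.51 (GMP minus MPP, log2, adjusted p = 0.0481), and for Prmt7, at -0.54 (adjusted p = 0.0481). Neither call held with each library left out in turn.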

How the results depend on the processing

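No member named in the text changed sign in a contrast it passed, under any alternative run. Between the alternatives the number of members passing moved by more than 1.5 times in these cases. In MPP, where 36 passed, it was 0 against 0.5 log2, 21 with the ribosomal protein score and 19 with the replicate number as a block. In GMP, where 7 passed, it was 22 under array weights, 3 with the GMP groups alone, 1 against 0.5 log2, 3 with the replicate number as a block and 12 with the ribosomal protein score, and it ran from 3 to 18 with libraries left out. For the difference of effects, where 2 passed, it was 0 with no filter, a minimum mean of 6, no trend or robust step, a test against 0.5 log2 or the replicate number as a block. It was 1 under median centring or quantile normalization, 9 under array weights, 7 without WT GMP 1 and T2F3 GMP 2 and 4 with the ribosomal protein score, and it ran from 0 to 5 with libraries left out. For GMP minus MPP in WT, where 27 passed, it was 1 against 0.5 log2, and left-out libraries gave 20 to 30. For GMP minus MPP in T2F3, where 7 passed, it was 14 under array weights, 2 with the T2F3 groups alone, 1 against 0.5 log2, 12 without WT GMP 1 and T2F3 GMP 2 and 17 with the ribosomal protein score, and it ran from 3 to 10 with libraries left out. The higher bar of 0.5 log2 gives fewer calls by construction, and the cause was not tested for the others. Treating genotype and number as 1 animal gave 37, 7, 3, 30 and 8 passing members in the order above.

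The libraries share numbers across groups, but no label says that equal numbers mark 1 animal or batch. Deviations from the group means correlated between same-numbered libraries of 1 genotype at 0.055 to 0.464 (7 pairs, median 0.2) and between same-numbered libraries of 1 population at -0.326 to 0.517 (5 pairs). Libraries of 1 genotype with other numbers gave -0.333 to 0.405 (22 pairs, median -0.104). Same-numbered pairs of 1 genotype were thus higher at the median, though the ranges overlapped. As no label states a pairing, the numbers were not taken as pairs in the main fit. The unknown depth limits what can be said of low members such as Prmt2 and Hdac11. With 1 of the 15 libraries left out 27 to 38 members passed in MPP.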
